A study of Mus musculus with 9 samples.

Results

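The ribosome biogenesis factors are 53 nuclear-encoded proteins that build ribosomes without being part of the finished particle. They were chosen by name, as factors of rRNA transcription, nucleolar processing and subunit assembly, and all 53 were found by symbol among 55401 entries of the deposited gene table. All 53 were also among the 14506 genes tested, which are those with a mean of at least 1 FPKM (fragments per kilobase of transcript, scaled to library size, a level per gene length) over the 9 libraries. RNA was sequenced from colonic tissue of mice in 3 groups of 3 libraries, each with genotype WT. The treatment labels are chow diet, high fat diet and berberine, a plant alkaloid. The titles of the chow and high-fat diet libraries also name AOM and DSS, the carcinogen and colitis-inducing agent of the common mouse model of colitis-associated colon cancer, so both of those groups carry that treatment. The titles of the berberine libraries give only BBR and a number, and their diet and whether they received AOM and DSS are not given in the sources used here. Strain, age, doses and the part of the colon sampled are not given either. Nothing says that the 3 libraries of a group came from separate mice, so p-values measure the spread between these libraries, which may be technical.

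Ribosome production starts in the nucleolus, where RNA polymerase I transcribes a long precursor that is folded, chemically modified, cut and packed with ribosomal proteins. Guide RNA particles of the box C/D and box H/ACA classes modify the precursor, the small-subunit processome and its UtpA, UtpB and Mpp10 modules process its first portion, and a separate set of factors builds and exports the large subunit. In the intestine the need for ribosomes is high in dividing crypt and tumour cells, and many biogenesis genes are known targets of the transcription factor Myc.

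Total deposited counts ran from 51961764 to 69007117 per library, and the smallest count of any member in any library was 583. Levels of 1 gene across libraries are given as CPM, counts scaled to library size with TMM, edgeR's correction for library composition. A gene was called changed where edgeR's quasi-likelihood test gave a Benjamini-Hochberg adjusted p under 0.05 over all genes tested. Libraries are bulk tissue, in which fewer cells of a type and less RNA per cell cannot be told apart.

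In the high-fat diet libraries, 44 of the 53 members rose against chow, 1 fell and 8 were not called. Of all genes tested, 15.2% were called higher, 16.6% lower and 31.8% in either direction in that comparison. The median log2 fold change of the 53 members was 0.79, and that of all genes tested was 0.00. Members ran from -1.27 for Utp20 to 1.65 for Nhp2, and 15 were called higher at 2-fold or more, a size that 6.74% of all genes passed. In 49 members each high-fat diet library lay above each chow library, which held for 23.2% of all genes, and in 1 member, Utp20, each lay below, which held for 22.6%. The groups overlapped for Tcof1, Imp4 and Bms1. The 8 members not called were Polr1c, Ubtf, Tcof1, Wdr36, Imp4, Nat10, Bms1 and Dcaf13, with log2 fold changes from 0.15 ± 0.200 (SE) for Tcof1 to 0.499 ± 0.23 for Nat10, all positive. Of the 44 higher calls, 34 held when any single library was left out and in each other setting that tested the gene. The share of all called genes that held in this way is not given here. The 10 lost in some leave-one-out fit were Dkc1, Emg1, Lsg1, Ncl, Noc2l, Nol6, Nop14, Polr1b, Rcl1 and Tbl3.

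**Figure D1:**
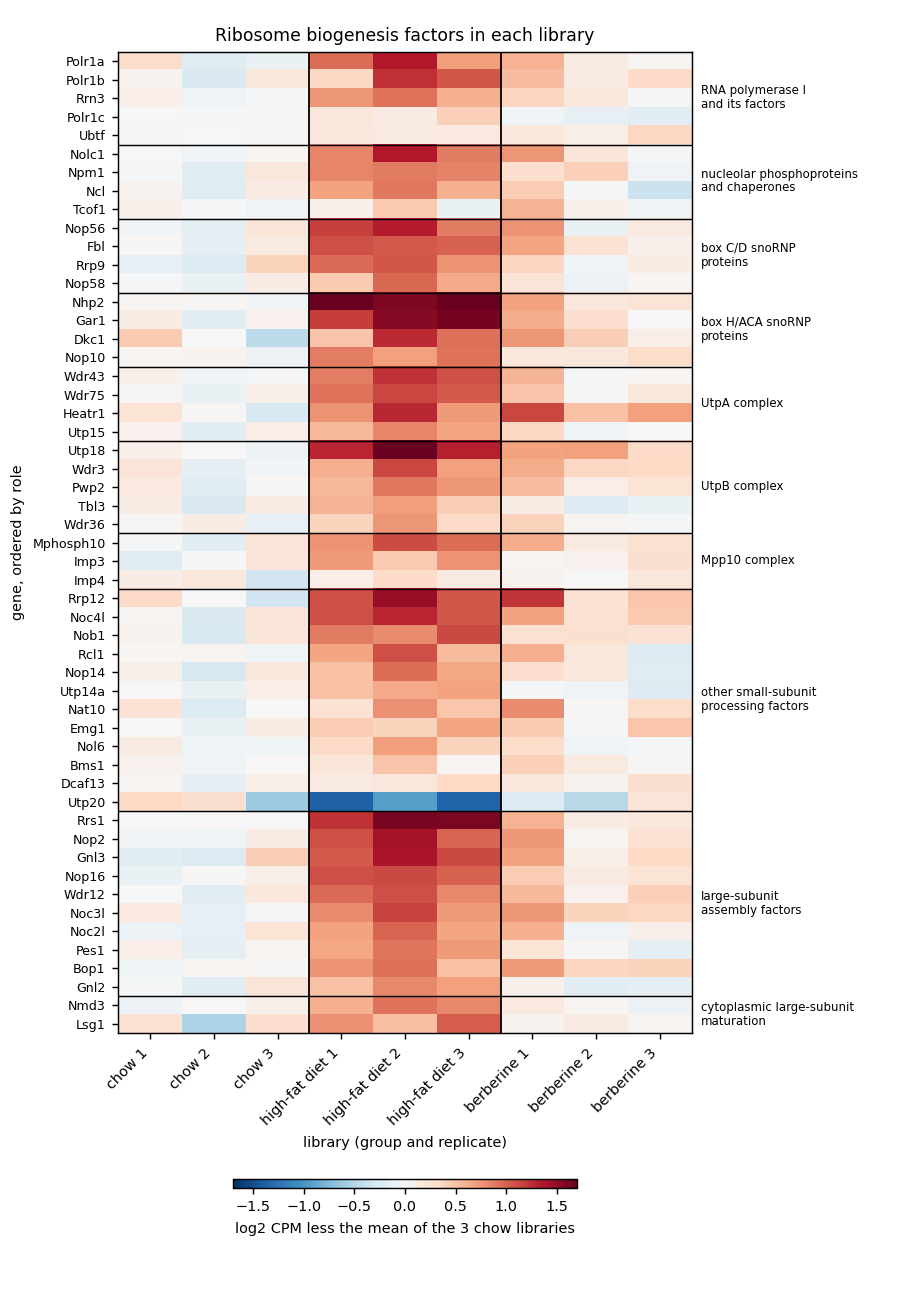
Level of each of the 53 members (rows, grouped by role) in each of the 9 libraries (columns), coloured by log2 CPM less the mean of the 3 chow libraries. The high-fat diet columns are higher for nearly all rows, Utp20 goes the other way, and berberine replicate 1 stands above the other two berberine libraries for most rows.

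Promoter sequence is shown because many biogenesis genes are known targets of Myc. With its partner Max, Myc binds the E-box CACGTG, a palindrome that reads the same on both strands. RefSeq promoter windows (250 bases before to 50 after the gene start, GRCm38.p6) matched 42 of the 53 members by symbol, 79.2%, which is too few for a share over the list to be read, so that check is void. Members with no window were Rrs1, Rrp12, Bop1, Nol6, Gnl2, Fbl, Dcaf13, Tbl3, Npm1, Tcof1 and Wdr36. Among the 42, CACGTG was found in 8, or 19.0%, and among all 27025 genes with a window in 2187, or 8.1%. The latter share is not limited to the genes tested, as the members are, so no difference is read from these shares. The matches began at -121 in Imp4, -114 in Nmd3, -60 in Nop2, 3 in Pes1, -215 and -48 in Rrn3, -20 in Utp18, 38 in Utp20 and 18 in Wdr43, counted in bases from the gene start. The stretches around all matches that lie before the start are printed 5′ to 3′ on the gene's strand, for an initiation factor of RNA polymerase I, an rRNA methyltransferase, an export adaptor, a UtpB subunit and an Mpp10 protein, with CACGTG in capitals. The stretch of Imp4, which was not called in any comparison, overlaps an exon of the antisense entry Gm28306.
Rrn3, chr16:13780454-13780686, plus strand: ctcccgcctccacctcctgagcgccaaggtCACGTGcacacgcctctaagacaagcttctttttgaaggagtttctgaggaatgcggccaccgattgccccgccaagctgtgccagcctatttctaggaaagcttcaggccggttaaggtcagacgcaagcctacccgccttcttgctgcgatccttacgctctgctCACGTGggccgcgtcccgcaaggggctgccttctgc
Nop2, chr6:125131793-125131858, plus strand: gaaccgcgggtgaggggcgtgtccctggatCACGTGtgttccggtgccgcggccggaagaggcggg
Nmd3, chr3:69721911-69721976, plus strand: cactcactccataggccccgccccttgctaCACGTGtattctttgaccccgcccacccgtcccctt
Utp18, chr11:93885767-93885816, minus strand: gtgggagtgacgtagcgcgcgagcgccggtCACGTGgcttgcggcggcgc
Imp4, chr1:34439678-34439743, plus strand: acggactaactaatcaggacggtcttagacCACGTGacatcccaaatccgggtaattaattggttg
A match is only a description of the letters: binding was not measured in these data. Of the 8 members with a match, 6 were called higher in the high-fat diet libraries, Utp20 was called lower and Imp4 was not called. Over all 53 members 44 were called higher, and over all genes tested 15.2%. A link between a match and a call was not tested.

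Among the 5 RNA polymerase I genes, 3 rose with the high-fat diet and 2 were not called, and the median log2 fold change was 0.76. Rrn3, the initiation factor that brings the polymerase to its promoter (chromosome 16, 13780708 to 13814839, GRCm38), was at 36.2, 31.8 and 32.9 CPM in the chow libraries, 56.2, 63.6 and 51.1 CPM in the high-fat diet libraries and 43.4, 38.02 and 32.7 CPM in the berberine libraries. Each high-fat diet library was above each chow and each berberine library, a 1.69-fold difference from chow (log2 fold change 0.76 ± 0.14 (SE), adjusted p = 0.00498). Polr1a, the largest subunit (chromosome 6, 71909053 to 71984935), was at 33.7, 23.7 and 25.2 CPM in the chow libraries, 52.4, 70.1 and 44.4 CPM in the high-fat diet libraries and 41.1, 29.9 and 28.1 CPM in the berberine libraries. Its high-fat diet libraries again lay above the others, 2.02-fold over chow (log2 fold change 1.01 ± 0.23 (SE), adjusted p = 0.0111). Polr1b, the other large catalytic subunit, rose too (log2 fold change 0.92 ± 0.24, adjusted p = 0.019). Polr1c, which polymerases I and III share, was above chow in each high-fat diet library but was not called (log2 fold change 0.25 ± 0.11, adjusted p = 0.113). Ubtf, the rDNA-binding architectural factor, ran from 126 to 132 CPM in chow, from 144 to 146 CPM in high-fat diet and from 139 to 166 CPM in berberine libraries, with no call in any comparison.

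Of the 4 nucleolar chaperones and scaffold proteins, Npm1, Nolc1 and Ncl rose and Tcof1 was not called. Npm1, the abundant histone chaperone of the nucleolus (chromosome 11, 33152287 to 33163206), was at 236, 212 and 275 CPM in the chow libraries, 424, 443 and 429.7 CPM in the high-fat diet libraries and 292, 317 and 230.4 CPM in the berberine libraries. The 3 high-fat diet libraries lay close together and above the rest, 1.79-fold over chow (log2 fold change 0.84 ± 0.15 (SE), adjusted p = 0.00397). Nolc1, a chaperone of small nucleolar particles (chromosome 19, 46075863 to 46085528), was at 41.8, 40.01 and 42.5 CPM in the chow libraries, 73.4, 107 and 76.1 CPM in the high-fat diet libraries and 69.7, 47.9 and 40.3 CPM in the berberine libraries. It was 2.06-fold higher than in chow (log2 fold change 1.04 ± 0.22 (SE), adjusted p = 0.00844), and berberine replicate 1 came close to the lowest high-fat diet library. Ncl, nucleolin, rose 1.65-fold (log2 fold change 0.73 ± 0.21, adjusted p = 0.027), whereas Tcof1, treacle, overlapped between the groups (log2 fold change 0.15 ± 0.200, adjusted p = 0.596).

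All 4 box C/D proteins and all 4 box H/ACA proteins rose. Fbl, fibrillarin, the methyltransferase of box C/D particles (chromosome 7, 28169710 to 28179269), was at 78.2, 68.96 and 86.02 CPM in the chow libraries, 166, 159.5 and 155 CPM in the high-fat diet libraries and 123, 91.4 and 81.9 CPM in the berberine libraries. High-fat diet and chow libraries did not overlap, and the mean was 2.06-fold higher (log2 fold change 1.04 ± 0.16 (SE), adjusted p = 0.00227). Nop56, a scaffold protein of the same particle (chromosome 2, 130274430 to 130279313), was at 38.97, 36.2 and 46.6 CPM in the chow libraries, 89.9, 102 and 74.2 CPM in the high-fat diet libraries and 68.5, 36.97 and 44.8 CPM in the berberine libraries. Its rise was 2.18-fold (log2 fold change 1.13 ± 0.24 (SE), adjusted p = 0.00797), and berberine replicate 1 was well above the other berberine libraries. Nop58, the partner of Nop56, and Rrp9, specific to the U3 particle, rose 1.62-fold and 1.87-fold.

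Nhp2, a core protein of box H/ACA particles, which guide pseudouridylation and also include telomerase (chromosome 11, 51619735 to 51623714), was at 39.99, 39.7 and 37.8 CPM in the chow libraries, 125, 117 and 126 CPM in the high-fat diet libraries and 62.7, 44.6 and 46.1 CPM in the berberine libraries. Its high-fat diet libraries were 3.13-fold above chow, the highest ratio of the 53 members (log2 fold change 1.65 ± 0.15 (SE), adjusted p = 0.000236). The spread was small within the chow and high-fat diet groups and wider among berberine libraries. Gar1, which binds the catalytic subunit of those particles (chromosome 3, 129824912 to 129831396), was at 25.9, 20.7 and 24.9 CPM in the chow libraries, 53.6, 69.4 and 73.1 CPM in the high-fat diet libraries and 36.6, 28.9 and 23.7 CPM in the berberine libraries. It rose 2.75-fold (log2 fold change 1.46 ± 0.196 (SE), adjusted p = 0.00118). Nop10 rose 1.78-fold (log2 fold change 0.83 ± 0.11, adjusted p = 0.00119), and Dkc1, dyskerin, the pseudouridine synthase itself, 1.84-fold with wide spread (log2 fold change 0.88 ± 0.28, adjusted p = 0.043). The median of the 4 box H/ACA proteins was 1.17 and that of the 4 box C/D proteins 0.97.

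**Figure D2:**
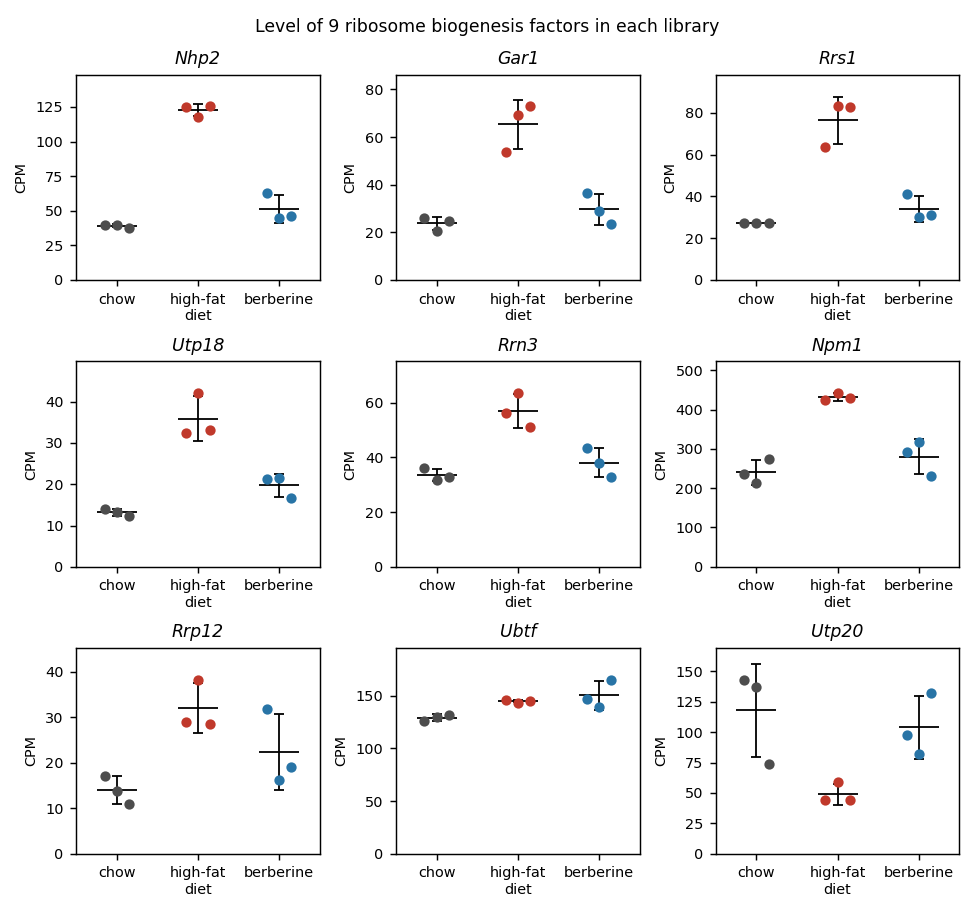
CPM of selected members in each library (points) by group, with the group mean and SD of 3 libraries. Nhp2 sits between 117 and 126 CPM in the high-fat diet libraries and between 37.8 and 39.99 CPM in chow, and Utp20 is lower in the high-fat diet libraries.

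The UtpA module, which joins the precursor while it is still being transcribed, rose in all 4 members measured. Wdr75 (chromosome 1, 45795166 to 45823619) was at 24.4, 22.4 and 25.9 CPM in the chow libraries, 45.9, 53.02 and 49.9 CPM in the high-fat diet libraries and 33.9, 24.5 and 27.5 CPM in the berberine libraries. High-fat diet libraries stood 2.05-fold above chow (log2 fold change 1.03 ± 0.15 (SE), adjusted p = 0.00152). Wdr43 (chromosome 17, 71615895 to 71659031) was at 42.8, 39.1 and 39.3 CPM in the chow libraries, 73.5, 94.8 and 85.3 CPM in the high-fat diet libraries and 60.4, 39.4 and 41.4 CPM in the berberine libraries. Its difference was 2.09-fold (log2 fold change 1.07 ± 0.18 (SE), adjusted p = 0.00326). Heatr1, the large HEAT-repeat protein of UtpA, rose 1.91-fold and Utp15 1.61-fold. In the UtpB module 4 of 5 members rose, and Wdr36 lay above chow in each library without a call (log2 fold change 0.495 ± 0.17, adjusted p = 0.0515). Utp18 (chromosome 11, 93859243 to 93885766), whose promoter stretch is printed above, was at 14.03, 13.2 and 12.4 CPM in the chow libraries, 32.5, 42.2 and 33.1 CPM in the high-fat diet libraries and 21.2, 21.5 and 16.6 CPM in the berberine libraries. Chow libraries were tightly grouped and each high-fat diet library was higher, by 2.71-fold on average (log2 fold change 1.44 ± 0.17 (SE), adjusted p = 0.000613). Wdr3 (chromosome 3, 100138180 to 100162407) was at 32.99, 25.1 and 27.3 CPM in the chow libraries, 43.5, 61.95 and 45.9 CPM in the high-fat diet libraries and 43.9, 35.95 and 35.7 CPM in the berberine libraries. It rose 1.77-fold (log2 fold change 0.83 ± 0.18 (SE), adjusted p = 0.00917), and Pwp2 and Tbl3, the other UtpB members, rose 1.66-fold and 1.47-fold.

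The 3 Mpp10 proteins, which bind the U3 RNA and the precursor, gave 2 rises. Mphosph10 (chromosome 7, 64376527 to 64392268) was at 19.3, 17.3 and 22.9 CPM in the chow libraries, 33.3, 42.4 and 37.9 CPM in the high-fat diet libraries and 30.4, 21.9 and 23.6 CPM in the berberine libraries. It was higher in each high-fat diet library than in chow, 1.91-fold (log2 fold change 0.94 ± 0.18 (SE), adjusted p = 0.00549). Imp3 (chromosome 9, 56937475 to 56938398) was at 38.3, 43.5 and 51.5 CPM in the chow libraries, 72.6, 59.9 and 74.5 CPM in the high-fat diet libraries and 45.5, 46.3 and 53.2 CPM in the berberine libraries. Its rise was 1.55-fold (log2 fold change 0.64 ± 0.15 (SE), adjusted p = 0.013). Imp4 overlapped between the groups (log2 fold change 0.18 ± 0.16, adjusted p = 0.401).

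Other small-subunit factors were the most mixed: of 12, 8 rose, Utp20 fell and Nat10, Bms1 and Dcaf13 were not called, with a median of 0.56. Noc4l, a partner of Nop14 in the early small subunit (chromosome 5, 110648418 to 110653417), was at 21.6, 17.9 and 24.6 CPM in the chow libraries, 45.5, 52.2 and 44.03 CPM in the high-fat diet libraries and 33.9, 25.2 and 28.8 CPM in the berberine libraries. It rose 2.21-fold (log2 fold change 1.14 ± 0.17 (SE), adjusted p = 0.00171). Nob1, the endonuclease that makes the last cut of the small-subunit rRNA (chromosome 8, 107412486 to 107425041), was at 23.5, 18.8 and 26.2 CPM in the chow libraries, 41.7, 39.5 and 49.2 CPM in the high-fat diet libraries and 27.2, 27.4 and 26.8 CPM in the berberine libraries. Each high-fat diet library was above each of the other 6, and the ratio to chow was 1.9 (log2 fold change 0.93 ± 0.15 (SE), adjusted p = 0.00284). Rrp12, an export factor, had a ratio of 2.29, Rcl1 of 1.73, Nop14 of 1.63, Utp14a of 1.53, Emg1, an rRNA methyltransferase, of 1.41, and Nol6 of 1.39.

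Utp20, a very large HEAT-repeat scaffold of the small-subunit processome (chromosome 10, 88746607 to 88826804), is described in full because it went against the other members, a choice made after its values were seen. It was at 143, 137 and 73.99 CPM in the chow libraries, 43.8, 59.00 and 44.3 CPM in the high-fat diet libraries and 97.7, 81.9 and 132 CPM in the berberine libraries. Each high-fat diet library was below each chow and each berberine library, although chow replicate 3 was far below the other two. The fall against chow was 2.41-fold (log2 fold change -1.27 ± 0.28 (SE), adjusted p = 0.0101), a call that held with each library left out in turn. Without Utp20 the median of the remaining 52 members was 0.81.

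All 10 large-subunit factors rose, as did both export factors. Rrs1, an early large-subunit assembly protein (chromosome 1, 9545408 to 9547455), was at 27.2, 27.4 and 27.2 CPM in the chow libraries, 63.6, 83.4 and 82.7 CPM in the high-fat diet libraries and 41.1, 30.03 and 30.98 CPM in the berberine libraries. The 3 chow libraries were nearly identical and the high-fat diet mean was 2.81-fold higher (log2 fold change 1.49 ± 0.16 (SE), adjusted p = 0.000486). Nop16 (chromosome 13, 54584185 to 54590090) was at 20.4, 22.4 and 23.6 CPM in the chow libraries, 47.4, 47.9 and 44.2 CPM in the high-fat diet libraries and 29.8, 24.5 and 26.03 CPM in the berberine libraries. The ratio was 2.1 (log2 fold change 1.07 ± 0.12 (SE), adjusted p = 0.000617). Pes1, Bop1 and Wdr12, which form the PeBoW complex, rose 1.7-fold, 1.67-fold and 1.94-fold. Ratios of the other large-subunit factors were 2.25 for Nop2, an rRNA methyltransferase, 2.23 for Gnl3, nucleostemin, 1.59 for the related GTPase Gnl2, 1.71 for Noc2l and 1.86 for Noc3l. Nmd3, the adaptor that carries the large subunit out of the nucleus (chromosome 3, 69721985 to 69756373), was at 22.7, 24.4 and 25.99 CPM in the chow libraries, 36.9, 46.3 and 42.6 CPM in the high-fat diet libraries and 27.2, 24.9 and 22.6 CPM in the berberine libraries. It rose 1.72-fold (log2 fold change 0.78 ± 0.14 (SE), adjusted p = 0.00354). Lsg1, the cytoplasmic GTPase that releases Nmd3 (chromosome 16, 30560494 to 30587592), was at 27.1, 15.5 and 27.4 CPM in the chow libraries, 38.7, 32.3 and 46.1 CPM in the high-fat diet libraries and 23.5, 24.9 and 23.4 CPM in the berberine libraries. Its rise of 1.67-fold passed narrowly (log2 fold change 0.74 ± 0.23 (SE), adjusted p = 0.038) and did not pass in 6 of the 9 leave-one-out fits.

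**Figure D3:**
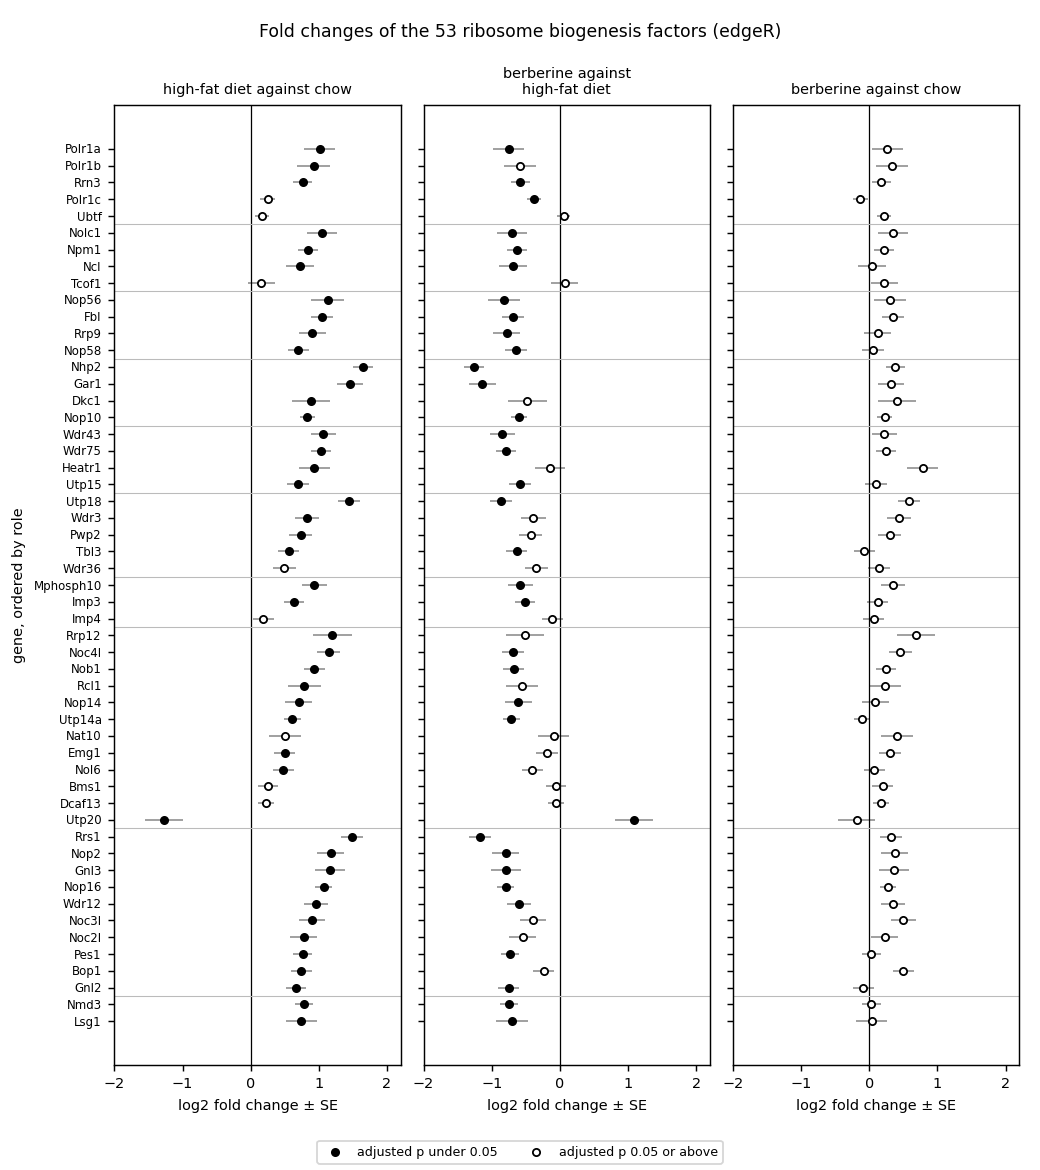
Log2 fold change (horizontal axis, with SE) of each member (vertical axis, grouped by role) in the comparisons of high-fat diet with chow, berberine with high-fat diet and berberine with chow. The first lie to the right of 0 for 52 of the 53 members and the second to the left for 50.

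Levels per gene length differed widely among proteins that work in 1 particle. In FPKM, the 4 box H/ACA genes in chow stood at 29.2 ± 1.404 (SD, n = 3) for Nhp2, 24.6 ± 1.29 for Nop10, 11.9 ± 1.899 for Gar1 and 4.88 ± 1.595 for Dkc1. In the high-fat diet libraries they stood at 99.7 ± 2.75, 47.6 ± 2.98, 35.5 ± 5.22 and 9.79 ± 2.68. The order of the 4 genes was the same in both groups, with neighbours more than 1 SD apart. In the polymerase, Polr1c was at 19.7 ± 1.19 FPKM in chow, far above 2.800 ± 0.513 for Polr1b and 1.99 ± 0.464 for Polr1a. Over all 9 libraries the highest member was Npm1 with a mean of 107 FPKM and the lowest Wdr12 with 1.43 FPKM, and Wdr12 was the 1 member under 1 FPKM in a group, at 0.975 ± 0.161 in chow.

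Members moved together from library to library. Summed over the 53 genes, chow libraries held 2590, 2335 and 2611 CPM, high-fat diet libraries 3923, 4534 and 4010 CPM and berberine libraries 3305, 2652 and 2615 CPM. The mean log2(CPM + 1) of the members, less the chow mean, was 0.06, -0.10 and 0.04 in chow, 0.66, 0.90 and 0.71 in high-fat diet and 0.44, 0.10 and 0.13 in berberine libraries. High-fat diet replicate 2 was the highest of its group for 41 of the 53 members, against 33.9% of all genes. Berberine replicate 1 was the highest of its group for 42 members, against 34.5% of all genes. Chow replicate 2 was the lowest of its group for 36, against 34.4%. The median coefficient of variation of the members was 11.5% in chow, 12.6% in high-fat diet and 15.9% in berberine libraries, and over all genes it was 18.3%, 16.4% and 13.9%.

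In the berberine libraries, 33 of the 53 members were lower than in the high-fat diet libraries, 1 was higher and 19 were not called. Of all genes tested 14.9% were called lower, 15.8% higher and 30.7% in either direction. The median log2 fold change of the members was -0.60, against -0.01 for all genes. In 36 members each berberine library lay below each high-fat diet library, as in 25.6% of all genes, and for Utp20 each lay above, as in 24.8%. The comparison shares the high-fat diet libraries with the one before, so the values stand side by side and are no independent support: 33 members were called in both, 12 in high-fat diet against chow alone and 1, Polr1c, in berberine against high-fat diet alone. The matching shares of all genes are not given here, so these counts are not read as particular to the members.

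Nhp2, Gar1 and Rrs1 were the 3 members lower by 2-fold or more, a size that 6.82% of all genes passed. Nhp2 was 2.4-fold lower in berberine libraries (log2 fold change -1.26 ± 0.14 (SE), adjusted p = 0.000571). For Rrs1 the difference was 2.25-fold (log2 fold change -1.17 ± 0.16 (SE), adjusted p = 0.00133), for Gar1 2.2-fold (log2 fold change -1.14 ± 0.195 (SE), adjusted p = 0.00344) and for Nop16 1.74-fold (log2 fold change -0.797 ± 0.12 (SE), adjusted p = 0.0022). By role, lower calls numbered 3 of 5 polymerase genes (Polr1a, Polr1c and Rrn3), 3 of 4 chaperones (Npm1, Nolc1 and Ncl), 4 of 4 box C/D, 3 of 4 box H/ACA without Dkc1, 3 of 4 UtpA without Heatr1, 2 of 5 UtpB (Utp18 and Tbl3) and 2 of 3 Mpp10 (Mphosph10 and Imp3). Among other small-subunit factors 4 of 12 were lower (Utp14a, Nop14, Noc4l and Nob1). Of the 10 large-subunit factors 7 were lower, and the exceptions were Bop1 (log2 fold change -0.24 ± 0.15, adjusted p = 0.257), Noc2l (log2 fold change -0.55 ± 0.198, adjusted p = 0.0671) and Noc3l (log2 fold change -0.396 ± 0.19, adjusted p = 0.141). Both export factors were lower, Nmd3 (log2 fold change -0.75 ± 0.14, adjusted p = 0.0043) and Lsg1 (log2 fold change -0.71 ± 0.23, adjusted p = 0.0466). Heatr1 was not called (log2 fold change -0.15 ± 0.22, adjusted p = 0.645): berberine replicate 1 lay within the high-fat diet range and the other two berberine libraries below it.

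Utp20 was 2.12-fold higher in the berberine than in the high-fat diet libraries (log2 fold change 1.08 ± 0.28 (SE), adjusted p = 0.0194). The test no longer passed when replicate 1 (adjusted p = 0.0583) or replicate 3 (adjusted p = 0.0596) of the high-fat diet group, or replicate 3 of the berberine group (adjusted p = 0.067), was taken out. The count of members lower varied with the library left out. It was 14 without berberine replicate 2, 17 without berberine replicate 3 and 18 without high-fat diet replicate 2. Calls among all genes fell as well in those fits, from 4460 to 2960, 3263 and 3524. The members' median log2 fold change was -0.572, -0.545 and -0.504 there, against -0.602 with all libraries. The 14 members called lower in every setting and leave-one-out fit that tested them were Nhp2, Nob1, Pes1, Nop16, Wdr75, Nop10, Nmd3, Gar1, Gnl2, Wdr43, Utp18, Npm1, Rrs1 and Utp14a. How many of all called genes held in every fit is not given here.

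Berberine and chow libraries gave no called member. In that comparison 7 of all genes tested were called, 0.0483% (0.0414% higher and 0.00689% lower), and the smallest adjusted p among the members was 0.326. At an unadjusted p under 0.05, 8 of 53 members differed by edgeR, all higher in berberine libraries, and 5.01% of all genes were higher at that level. DESeq2 and limma also called 0 members, although DESeq2 called 380 genes in all. The members' median log2 fold change was 0.23, with all genes at 0.00, and 48 of the 53 were positive, against 49.7% of all genes. In 12 members each berberine library lay above each chow library, as in 8.73% of all genes, and in 1, Polr1c, each lay below, as in 9.37%. For 47 members the berberine mean lay between the chow and the high-fat diet means, and the matching share of all genes is not given here. Utp18 (log2 fold change 0.58 ± 0.16 (SE), adjusted p = 0.326), Heatr1 (log2 fold change 0.78 ± 0.23 (SE), adjusted p = 0.332) and Bop1 (log2 fold change 0.502 ± 0.15 (SE), adjusted p = 0.342) had the smallest unadjusted p. Heatr1 (chromosome 13, 12395027 to 12440289) was at 28.1, 24.3 and 20.1 CPM in the chow libraries, 40.5, 58.1 and 39.5 CPM in the high-fat diet libraries and 52.4, 33.6 and 38.6 CPM in the berberine libraries. Bop1 (chromosome 15, 76452989 to 76477277) was at 38.04, 41.2 and 40.4 CPM in the chow libraries, 67.4, 76.4 and 56.2 CPM in the high-fat diet libraries and 65.97, 51.2 and 52.2 CPM in the berberine libraries. For all 3 each berberine library was above each chow library, and for Heatr1 and Bop1 berberine replicate 1 lay within the high-fat diet range while the other two berberine libraries lay below it. Without berberine replicate 1 the members' median was 0.14.

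**Figure D4:**
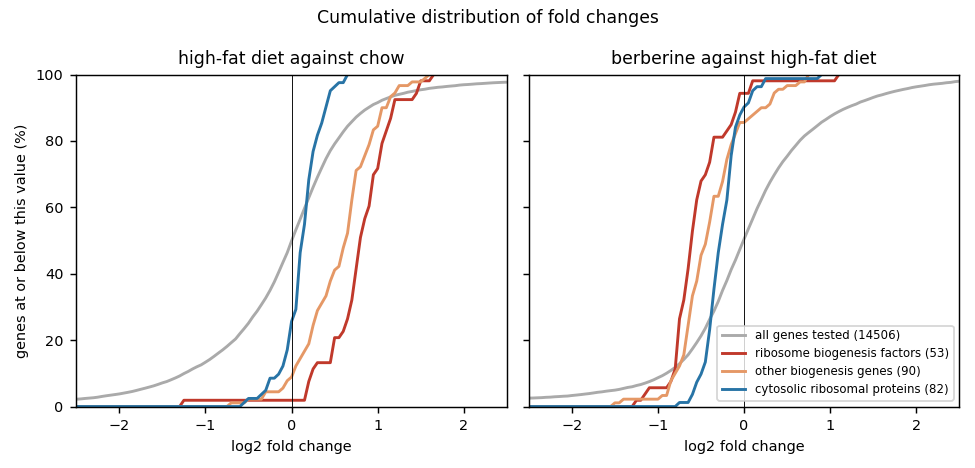
Cumulative share (vertical axis) of log2 fold changes (horizontal axis) in high-fat diet against chow and in berberine against high-fat diet, for the 53 members, 90 other biogenesis genes, 82 cytosolic ribosomal proteins and all genes tested. The medians of the 4 sets are 0.79, 0.62, 0.13 and 0.00 in the first comparison and -0.60, -0.44, -0.27 and -0.01 in the second.

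Other genes of the pathway, 90 in all and none of them a member, were also more often higher than lower with the high-fat diet. In high-fat diet against chow 53 were called higher and 2 lower, with a median of 0.62. In berberine against high-fat diet 37 were lower and 3 higher, with a median of -0.44, and in berberine against chow 0 were called by edgeR, with 11 at an unadjusted p under 0.05, 1 called by DESeq2 and 0 by limma, and a median of 0.15. Ltv1, which helps export the small subunit, was at 35.9, 29.9 and 30.1 CPM in the chow libraries, 92.5, 95.1 and 102 CPM in the high-fat diet libraries and 40.3, 26.8 and 32.6 CPM in the berberine libraries. It rose 3.02-fold with the high-fat diet (log2 fold change 1.596 ± 0.17 (SE), adjusted p = 0.000398) and was 2.91-fold lower in berberine libraries (log2 fold change -1.54 ± 0.17 (SE), adjusted p = 0.000449). Ddx18, an RNA helicase, rose in the high-fat diet libraries (log2 fold change 1.03 ± 0.14, adjusted p = 0.00129), as did Nifk, a nucleolar partner of Ki-67 (log2 fold change 0.83 ± 0.14, adjusted p = 0.00284), and Snu13, a box C/D core protein (log2 fold change 0.72 ± 0.12, adjusted p = 0.0028). The 2 lower genes were Sbds, which readies the large subunit in the cytoplasm (log2 fold change -0.71 ± 0.14, adjusted p = 0.00683), and Utp11, a processome factor (log2 fold change -0.51 ± 0.12, adjusted p = 0.0134), both named because the count is small.

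Cytosolic ribosomal proteins, the parts these factors assemble, were measured for 82 genes. In high-fat diet against chow edgeR called 1 higher, Rpl15 (log2 fold change 0.43 ± 0.12, adjusted p = 0.0277), and 0 lower, with 5 at an unadjusted p under 0.05 and a median log2 fold change of 0.13. DESeq2 called 4 higher and limma on log2(FPKM + 1) 5, and neither called 1 lower. In berberine against high-fat diet 3 were lower by edgeR, Rpl15 (log2 fold change -0.58 ± 0.12, adjusted p = 0.00881), Rpl7 (log2 fold change -0.63 ± 0.19, adjusted p = 0.0357) and Rpl27 (log2 fold change -0.61 ± 0.19, adjusted p = 0.037), with a median of -0.27, and DESeq2 and limma each called 6 lower. In berberine against chow 0 were called by edgeR, DESeq2 or limma, with 1 at an unadjusted p under 0.05 and a median of -0.14. The called genes are named because they are few. Log2 fold changes were positive for 61 of the 82 and negative for 21 in high-fat diet against chow. They were negative for 74 and positive for 8 in berberine against high-fat diet, and for 76 and 6 in berberine against chow. Each berberine library lay below each high-fat diet library for 37 of the 82, or 45.1%, against 25.6% of all genes, and above for 0. Each high-fat diet library lay above each chow library for 5, or 6.1%, against 23.2%.

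Of 11 genes of the Myc and Max network, 4 were higher in high-fat diet than in chow libraries, 3 were lower and 4 were not called. Myc was at 24.7, 23.2 and 36.6 CPM in the chow libraries, 87.3, 105 and 109 CPM in the high-fat diet libraries and 40.4, 21.7 and 30.6 CPM in the berberine libraries. All 3 high-fat diet libraries were above the other 6, 3.56-fold over chow (log2 fold change 1.83 ± 0.26 (SE), adjusted p = 0.00147) and 3.25-fold in the other direction in berberine libraries (log2 fold change -1.701 ± 0.26 (SE), adjusted p = 0.00204). Mycn rose 4.19-fold from a low level of 3.24 ± 0.505 CPM (log2 fold change 2.07 ± 0.26, adjusted p = 0.00081) and Mycl 3.18-fold (log2 fold change 1.67 ± 0.22, adjusted p = 0.00116). Mxd3, a dimerization partner of Max, was higher as well (log2 fold change 0.99 ± 0.32, adjusted p = 0.0449). Max itself fell, from 246 ± 41.8 to 126 ± 23.3 CPM (log2 fold change -0.97 ± 0.18, adjusted p = 0.00457). Mxd1, like Mxd3 a dimerization partner of Max, fell 3.66-fold (log2 fold change -1.87 ± 0.25, adjusted p = 0.00118), and Mlx, a Max-like protein, fell too (log2 fold change -0.71 ± 0.15, adjusted p = 0.00783). Mnt (log2 fold change 0.41 ± 0.15, adjusted p = 0.0675), Mxd4 (log2 fold change -0.09 ± 0.28, adjusted p = 0.836), Mxi1 (log2 fold change -0.04 ± 0.21, adjusted p = 0.912) and Mga (log2 fold change 0.07 ± 0.12, adjusted p = 0.677) were not called. In berberine against high-fat diet the same 7 genes were called in the opposite direction, 4 lower and 3 higher, and in berberine against chow 0 of the 11 were called by edgeR, DESeq2 or limma, with 0 at an unadjusted p under 0.05.

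Cell type markers differed between the groups as well. Of 12 genes of dividing cells, Mcm2, Mcm5, Pcna and Cdk1 were higher in high-fat diet than in chow libraries and 8 were not called, Mki67 among them (log2 fold change 0.13 ± 0.29, adjusted p = 0.778). Log2 fold changes were positive for 11 of the 12 and negative for 1. DESeq2 and limma on log2(FPKM + 1) each called 6 higher and 0 lower. The list's median was 0.68, and its sum ran from 492 to 876 CPM in chow, from 948 to 1015 CPM in high-fat diet and from 544 to 715 CPM in berberine libraries. All 7 colonocyte markers fell with the high-fat diet, from a sum of 3979 to 8600 CPM in chow to 294 to 399 CPM, and stood at 2335 to 3906 CPM in berberine libraries. Goblet cell markers fell in 5 of 7, with sums of 10240 to 31200 CPM in chow, 955 to 6540 CPM in high-fat diet and 14340 to 26260 CPM in berberine libraries. Smooth muscle markers fell in 4 of 8 (9661 to 13430, 1609 to 7535 and 4793 to 5669 CPM), B cell markers in 7 of 8 (409.8 to 607, 156 to 300.3 and 568 to 1077 CPM) and T cell markers in 5 of the 6 tested (54.5 to 120.4, 32.5 to 36.7 and 95.8 to 132 CPM). All 8 smooth muscle markers had negative log2 fold changes, and DESeq2 called 8 lower and limma on log2(FPKM + 1) 7. Pan-epithelial markers, which check the tissue label, were present throughout at 11520 to 12650, 8848 to 11650 and 10850 to 12970 CPM, with 1 of 8 higher.

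Macrophage markers rose in 2 of 7 (186 to 282, 321 to 432 and 286 to 367 CPM) and neutrophil markers in 3 of the 4 tested (58.9 to 155, 76.6 to 154 and 126 to 193 CPM), with Retnlg at 0 in all berberine libraries. Plasma cell markers gave 1 rise and 1 fall of 7 (1686 to 5410, 2592 to 3429 and 5942 to 8410 CPM). Striated muscle markers fell in 5 of 8 by edgeR, 2 of 8 by DESeq2 and 1 of 8 by limma on log2(FPKM + 1). Their sums stood far apart in chow (37.5 to 1586 CPM). These sums ran from 8.72 to 25.8 CPM in high-fat diet and from 14.99 to 20.8 CPM in berberine libraries. Myh4 and Pvalb were at 0 in all high-fat diet libraries. Squamous markers ran from 2.92 to 334 CPM in chow, 62.99 to 162 CPM in high-fat diet and 5.51 to 19.7 CPM in berberine libraries, with Sprr3 at 0 in all libraries of the latter groups, and 1 of the 6 tested was called higher. Adipocyte markers ran from 96.7 to 168, from 19.5 to 36.8 and from 36.04 to 865 CPM, and 1 of the 6 tested fell.

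In berberine against high-fat diet, where most called members were lower, edgeR called 2 of the 12 genes of dividing cells lower and 0 higher. DESeq2 and limma on log2(FPKM + 1) each called 5 of them lower and 0 higher. All 12 had negative log2 fold changes, with a median of -0.66 and 6 at an unadjusted p under 0.05 by edgeR. Markers were called higher for B cells in 8 of 8, T cells in 6 of 6, colonocytes in 6 of 7, goblet cells in 5 of 7, adipocytes in 5 of 6 and plasma cells in 3 of 7, with 1 plasma cell marker lower. Lower calls numbered 2 of 4 for neutrophils and 1 each for pan-epithelial (of 8), macrophage (of 7) and squamous markers (of 6). For smooth and for striated muscle 0 of 8 were called by edgeR, DESeq2 or limma, with 0 at an unadjusted p under 0.05 by edgeR. The part of these cell types in the members' differences, in either comparison, was not tested.

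Overlapping transcription touches some members. As annotated, 11 members share bases with an entry on the other strand whose mean is at least 0.5 FPKM, the longest stretches being 2581 bases between Tbl3 and Noxo1 and 2007 bases between Bop1 and Scx, followed by 987 for Rrp9 and Parp3 and 875 for Heatr1 and Lgals8. Nhp2 shares 44 bases with Rmnd5b. Ncl, Nop56 and Nop58 hold small RNA entries on their own strand. Whether counting used strand is not given in the sources used here, so values of these members are less certain.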

How the data were processed

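Poly(A) RNA libraries of mouse colonic tissue were sequenced. Per the submitters' processing notes, the build was GRCm38 and the tools included StringTie 1.3.4d, HISAT2 2.0.4 and cutadapt 1.9, besides edgeR, DESeq2 and UMI-tools. The authors deposited 1 table with an estimated count and an FPKM value per gene and library, per the file headers. Counts were rounded. Multiples of 4 were over-represented among low counts, so counts may overstate the number of fragments, and counts divided by 4 were tried. The filter was a mean FPKM of 1 or more, and the genes kept held 98.9% of all counts. edgeR 4.0.16 (TMM, quasi-likelihood test, R 4.3.3) was fitted to all 9 libraries with group as the factor and compared the 3 pairs of groups, two-sided, with Benjamini-Hochberg adjustment over 14506 genes. Each SE was derived from that test, as the absolute log2 fold change over the square root of the test's F statistic. Alternatives were DESeq2 1.42.0, limma 3.58.1 on log2(FPKM + 1) and log2(FPKM + 0.1), and other scalings and filters. Further alternatives were the 6 libraries compared, the replicate block and each library left out. Values in every library are given for the 2 members of each role with the smallest unadjusted p in high-fat diet against chow and the 3 in each other comparison. Of the wider pathway the 4 genes with the smallest p in the first comparison are named, and of the Myc network every gene. The members, lists and rules were chosen with earlier results of these data known. The ribosomal protein list was taken by symbol after other values were seen.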

Additional observations from a re-analysis of the deposited data

How the results depend on the processing

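Member counts in high-fat diet against chow stayed within 1.5 times in each setting tried. Scaling by library totals put the all-gene median at 0.13 in high-fat diet against chow and -0.12 in berberine against high-fat diet, and in the former 46 members were higher, with a median of 0.92. Correlations of same-numbered libraries' deviations from their group means ran from -0.0986 to 0.16, and those of differently numbered libraries from -0.219 to 0.16. With 3 libraries a group, these values cannot exclude that replicate numbers pair the libraries. With the replicate block, 42 members were higher and 1 lower in high-fat diet against chow, 30 lower and 1 higher in berberine against high-fat diet, and 4344, 4286 and 2 genes were called in the 3 comparisons. A filter at 5 FPKM left 3008 genes called in high-fat diet against chow and 2855 in berberine against high-fat diet, with fewer genes tested. With no filter, 40 members were higher and 1 lower in high-fat diet against chow. In berberine against high-fat diet that setting gave 23 members lower and 1 higher, with 4211 genes called. In berberine against chow, 7 genes became 2 with DESeq2 size factors, 2 with counts divided by 4, 2 with the 6 libraries compared and 380 with DESeq2's Wald test; the cause was not tested. Leaving out 1 library gave 1 to 7 genes called there, 2960 to 4740 in berberine against high-fat diet, and 15 to 34 members called, 14 to 33 lower and 0 to 1 higher.

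Of 2982 member values under alternatives, 2782 kept direction and side of the threshold, 151 lost the call, 18 gained it and 31 changed sign, all in comparisons where that member was not called. In berberine against high-fat diet, Ubtf was -0.058 with library totals, -0.047 and -0.049 with limma at pseudocounts of 1 and 0.1 and as low as -0.028 with 1 library left out. Tcof1 was -0.039, -0.033 and -0.037 in the same settings and -0.146 with 1 library left out. With 1 library left out, log2 fold changes in high-fat diet against chow ran from -0.015 to 0.28 for Tcof1. With 1 library left out, log2 fold changes in berberine against high-fat diet ran from -0.35 to 0.063 for Heatr1, -0.33 to 0.067 for Nat10, -0.17 to 0.081 for Bms1, -0.15 to 0.25 for Tcof1 and -0.028 to 0.11 for Ubtf. With 1 library left out, log2 fold changes in berberine against chow ran from -0.035 to 0.091 for Nmd3, -0.19 to 0.21 for Ncl, -0.035 to 0.13 for Nop58, -0.036 to 0.22 for Nop14, -0.075 to 0.12 for Pes1, -0.19 to 0.17 for Lsg1, -0.072 to 0.17 for Imp4, -0.18 to 0.033 for Gnl2, -0.041 to 0.18 for Utp15, -0.053 to 0.15 for Nol6 and -0.005 to 0.41 for Rcl1. The smallest count of a member was 583, and precision rests on 3 libraries a group.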
